A study of Mus musculus with 12 samples.

Results

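The 3 testis libraries labelled 5NC, named here control_5NC, were set against the 9 libraries of the 3 other groups, over every gene of the deposited table. The other groups, of 3 libraries each, carried virus for overexpression of lncRNA8276 (overexpression), virus for its inhibition (knockdown), or the label 3NC (control_3NC). The design text names the 4 groups and puts 5NC before overexpression and 3NC before knockdown. 5NC and 3NC are taken here as controls of the virus treatment. All 12 libraries came from total RNA of testes of F1 mice of 1 strain, labelled IRC mouse. The labels give no age, no promoter or target cell of the virus, and nothing in them ties a library to an animal of its own. Errors and p-values thus cover how far these samples differ, possibly for technical reasons alone. The 3 libraries of 12 are a labelled group, but the comparison was chosen by measured counts, because control_5NC had stood apart in this same contrast. Every difference between control_5NC and the others is therefore given as a description and no p-value is printed for it.

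A testis holds germ cells of all stages at once, with the Sertoli and Leydig cells that support them. Spermatogonia divide and enter meiosis, where the enzyme Spo11 cuts DNA and homologous chromosomes pair in prophase. Pachytene spermatocytes then carry out 2 divisions with the help of kinases such as Cdk1 and Aurkb. The round spermatids that result build an acrosome and a tail and elongate into sperm. Each stage has its own transcripts, so in a bulk library fewer cells of a stage and less RNA per cell cannot be told apart.

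Of 20788 genes in the table, 16395 had enough counts to be fitted. The library totals of control_5NC were 15771655, 13847277 and 13699547 counts, and those of the 9 others ran between 13485479 and 15677904. Defining transcripts of testis were present, with Prm1, which packs sperm DNA, at 2949 to 3373 CPM (counts scaled by TMM to a common library total) in control_5NC. The germ cell helicase Ddx4 stood at 613.7, 776.2 and 718.0 CPM in the same libraries. Library 2 of control_3NC stood apart from all others, with a median correlation of 0.948 to the other libraries and a summed level of leukocyte genes of 1660 CPM, against 512 to 528 CPM in control_5NC. Library 2 of control_5NC had the most of the epididymal secretory gene Crisp1, at 240.0 CPM, against 9.93 and 98.9 CPM in the other 2 control_5NC libraries, and 165.5 CPM in library 1 of knockdown. Libraries 2 and 3 of control_5NC and library 2 of overexpression had the lowest totals of the 12.

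With edgeR's quasi-likelihood fit and a Benjamini-Hochberg adjusted p below 0.05 as the rule for a call, 395 genes were called between control_5NC and the mean of the 3 other groups, which is 2.41% of those fitted. Of these, 191 were higher in control_5NC (1.16%) and 204 were lower (1.24%). The same contrast form called 8 genes for overexpression (0.0488%), 7 for knockdown (0.0427%, with 6 higher, 0.0366%, and 1 lower, 0.0061%) and 2 for control_3NC (0.0122%). Taken group by group, control_5NC differed in 78 genes from overexpression (0.476%), in 202 from knockdown (1.23%) and in 40 from control_3NC (0.244%). These 3 comparisons share the control_5NC libraries. Among the 3 other groups a test with the same model found 4 genes (0.0244%), and 978 at an unadjusted p below 0.05. These groups formed the other side of the contrast that chose control_5NC, so the 4 are no independent measure for the 395. The choice likewise favoured the larger count of control_5NC. The 4 were Alb, the main protein of blood plasma (adjusted p = 0.00703), Neo1, a netrin receptor (adjusted p = 0.0422), and Gm15127 and Gm5923 (adjusted p = 0.0422 each). These 4 were chosen after their values were seen, and Gm15127 and Gm5923 have counts shared with similar genes.

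**Figure D1:**
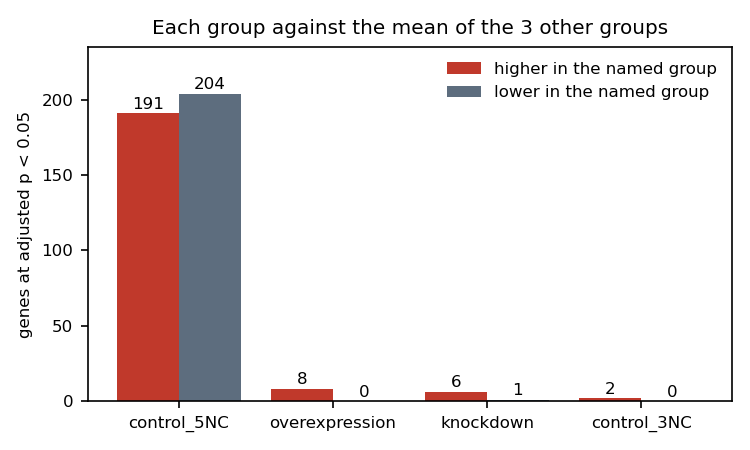
Number of genes (y axis) called at an adjusted p below 0.05 when each group (x axis, 3 libraries each) is set against the mean of the other 3, in red for genes higher and in grey for genes lower in the named group. The counts were 191 and 204 for control_5NC, and 8, 7 and 2 in all for the other groups. control_5NC was chosen for standing apart in this contrast, so its larger count is not a result.

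The number of calls moved with single libraries. It was 84, 63 and 23 without control_5NC library 1, 2 and 3. Among the other groups it was 119, 736 and 113 without overexpression library 1, 2 and 3, and 173, 110 and 133 without knockdown library 1, 2 and 3. It was 288, 1283 and 677 without control_3NC library 1, 2 and 3. Adding a covariate that marks the 3 smallest libraries, of which control_5NC holds 2, left 81 calls, 72 of them among the 395. The part of library 2 of control_3NC and of library totals in these differences was otherwise not tested.

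Most differences were small. The median log2 fold change was 0.47 for the genes called higher and -0.54 for those called lower, against -0.0031 for all genes fitted. Past 2-fold were 15 genes higher and 41 genes lower. For 337 of the 395 called genes the 3 control_5NC libraries did not overlap the 9 others, 173 above and 164 below. Over all genes the same held for 993 (6.06%), with 501 above (3.06%) and 492 below (3.00%). The genes nearest the call rule were Osbpl2, just inside, with a log2 fold change of 0.31, and Nap1l4, just outside, with 0.26.

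**Figure D2:**
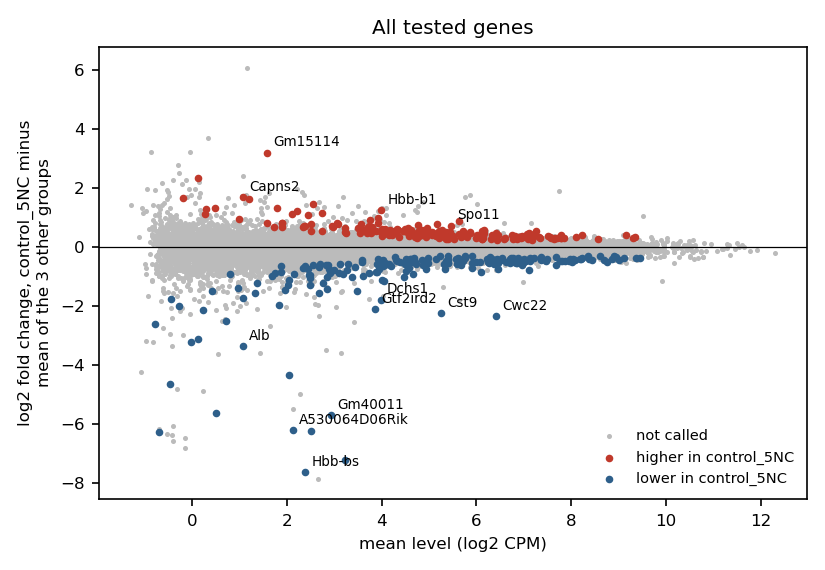
Log2 fold change of control_5NC over the mean of the 3 other groups (y axis) against the mean level of each of the 16395 genes in log2 CPM (x axis), with called genes in red (higher) and blue (lower). The lower genes reach -7.63 and the higher ones 3.20, and most of the called genes lie close to 0.

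Several of the largest differences were in genes nearly silent in control_5NC alone. Gm40011 had 0.0628, 0.282 and 0.216 CPM in control_5NC, against a lowest value of 7.79, a median of 9.75 and a highest of 11.8 CPM in the 9 others. The 3 control_5NC libraries lay far below every other library, and the log2 fold change was -5.70 ± 0.29 (SE of the fit). In counts, control_5NC held 8 and the others 1347, so the ratio of the others over control_5NC was 54.3 with a 95% counting interval of 27.5 to 126. A530064D06Rik had 0.126, 0.0706 and 0 CPM in control_5NC, against 4.46 to 7.43 CPM in the others, with a median of 5.32 CPM. Its log2 fold change was -6.20 ± 0.41, and the ratio of the others over control_5NC was 82.4 (95% counting interval 28.1 to 401). Its neighbour on chromosome 17, 9830107B12Rik, held 1 count in control_5NC and 105 in the others, a ratio of 33.9 (5.95 to 1350). Both neighbours have counts shared with similar genes. The pregnancy-specific glycoprotein gene Psg17 held 0 counts in control_5NC and 88 in the others. The lower end of the 95% counting interval for its ratio of the others over control_5NC was 7.54. With the control_5NC sum set to 3 counts the ratio was 9.47. Psg17 was not called without any 1 of the 3 control_5NC libraries. Counting intervals cover counting error only.

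Among the other groups these genes were not called. The edgeR test among overexpression, knockdown and control_3NC gave an adjusted p of 0.906 for Gm40011, 0.951 for A530064D06Rik and 0.981 for Psg17, which does not show that the 3 groups are alike. Set against each group in turn, Gm40011 had log2 fold changes of -5.77 (overexpression), -5.58 (knockdown) and -5.74 (control_3NC), and A530064D06Rik had -6.28, -6.23 and -6.10 in the same order.

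A second set was expressed in all libraries, and lower in control_5NC. Gtf2ird2, which belongs to the GTF2I family of transcription factor genes, had 4.34, 4.38 and 3.74 CPM in control_5NC, against 11.3 to 23.4 CPM in the 9 others, with a median of 17.7 CPM (log2 fold change -2.09 ± 0.21). Cst9, a cystatin transcript of Sertoli cells, had 8.04, 11.8 and 10.4 CPM in control_5NC, against 22.9 to 73.7 CPM in the others, with a median of 45.5 CPM (log2 fold change -2.23 ± 0.34). Its spread was widest in knockdown, where the SD was 25.8 CPM around a mean of 45.9 CPM, and the call was lost without any 1 of the 3 control_5NC libraries. Cwc22, a splicing factor, had 17.2, 24.4 and 20.1 CPM in control_5NC, against 52.1 to 193.5 CPM in the others, with a median of 83.8 CPM (log2 fold change -2.34 ± 0.42). The call for Cwc22 held in 7 of 12 fits that left out 1 library each, and was lost without control_5NC library 1, 2 or 3, overexpression library 1 or knockdown library 3. For these 3 genes the control_5NC libraries lay below all others.

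Fewer genes were higher by a wide margin. Capns2, a small calpain subunit, had 4.40, 3.95 and 4.03 CPM in control_5NC, against 1.06 to 1.51 CPM in the others, with a median of 1.30 CPM (log2 fold change 1.69 ± 0.15). Tgm6, a transglutaminase, had 5.28, 3.39 and 4.60 CPM in control_5NC, against 0.955 to 2.17 CPM in the others, with a median of 1.35 CPM (log2 fold change 1.65 ± 0.23). In neither gene did the control_5NC libraries overlap the others. The call for Tgm6 was lost without control_5NC library 3, and that for Capns2 held without each library.

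Not every gene called against the mean of the other groups set control_5NC apart from each of them. Alb had 0.0628, 0.0706 and 0.144 CPM in control_5NC, 2.89 to 6.10 CPM in overexpression and knockdown, and 0.0663, 0.125 and 0 CPM in control_3NC. The control_3NC libraries were thus as low as those of control_5NC. Against control_3NC alone the log2 fold change of Alb was 0.44, against -5.39 for overexpression and -5.17 for knockdown. Without control_3NC library 2, or without any of the 3 control_5NC libraries, Alb was not called. Serpina3k, another secreted liver protein, averaged 0.0689 CPM in control_5NC, and ran from 0.0626 to 1.05 CPM in the others. Its means were 0.858 CPM in overexpression, 0.710 CPM in knockdown and 0.155 CPM in control_3NC. It held 3 counts in control_5NC, and its call held in 2 of 12 fits that left out 1 library. Cyp21a1, the steroid 21-hydroxylase of the adrenal, averaged 5.16 ± 0.52 CPM in control_5NC, 13.7 ± 2.30 CPM in overexpression, 11.4 ± 2.33 CPM in knockdown and 5.72 ± 0.11 CPM in control_3NC (SD, n = 3 each). The edgeR test among the 3 other groups gave it an adjusted p of 0.117. Gm15114, on chromosome X with counts shared between similar genes, averaged 6.27 ± 0.49 CPM in control_5NC, 0.579 ± 0.76 in overexpression, 0.108 ± 0.19 in knockdown and 4.57 ± 0.94 in control_3NC (SD, n = 3 each). Slc6a15, an amino acid transporter, went the other way among the groups, at 1.95, 1.98 and 2.01 CPM in control_5NC, 0.265 to 1.30 CPM in overexpression and knockdown, and 0 to 0.133 CPM in control_3NC. In both Gm15114 and Slc6a15 the control_5NC libraries lay above all others, whose highest values were 5.61 and 1.30 CPM. Gm15114, Slc6a15 and Cyp21a1 were not called without any 1 of the 3 control_5NC libraries.

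Among the germ cell genes, transcripts of meiotic division leaned higher and those of round spermatids leaned lower in control_5NC by list median. As a mean of centred log2 levels per library, the pachytene and division list did not overlap (0.0957 to 0.149, others -0.101 to 0.0819). The round spermatid list did overlap (-0.201 to -0.143, others -0.255 to 0.204), with library 2 of control_3NC lowest. Summed levels overlapped in both lists, at 9570 to 9900 CPM (others 8430 to 10200) and 6330 to 6870 CPM (others 5910 to 8120). Promoters of 4 called genes of these lists, and of Gm40011, which lies on chromosome 2 near Spo11, are shown as the sequence around the starts of the genes that these results turn on. They are RefSeq sequences of GRCm38.p6, from 250 bases before to 50 after a RefSeq start, 5′ to 3′ on the gene's strand. The first window listed for each gene was taken. For Ccna1 it lies inside the gene as placed by GENCODE M21, downstream of the start given there. Capitals mark CCAAT, the cell cycle homology region TTTGAA and the cAMP response element TGACGTCA, searched on both strands. The first is read as ATTGG on the other strand.
Cdk1 (chr10:69352863-69353162, minus strand): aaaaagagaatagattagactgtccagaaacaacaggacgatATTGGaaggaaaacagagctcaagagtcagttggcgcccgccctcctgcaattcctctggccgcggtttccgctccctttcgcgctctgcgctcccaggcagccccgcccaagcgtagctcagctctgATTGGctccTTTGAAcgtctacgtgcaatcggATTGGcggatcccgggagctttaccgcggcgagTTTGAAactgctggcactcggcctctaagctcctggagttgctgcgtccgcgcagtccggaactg
Ccna1 (chr3:55055006-55055305, minus strand): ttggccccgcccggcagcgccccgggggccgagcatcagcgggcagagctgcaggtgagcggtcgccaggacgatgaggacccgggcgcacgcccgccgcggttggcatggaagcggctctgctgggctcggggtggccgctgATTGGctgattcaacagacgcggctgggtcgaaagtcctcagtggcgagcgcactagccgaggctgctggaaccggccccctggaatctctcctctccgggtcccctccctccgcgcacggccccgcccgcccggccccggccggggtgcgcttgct
Acrv1 (chr9:36692970-36693269, plus strand): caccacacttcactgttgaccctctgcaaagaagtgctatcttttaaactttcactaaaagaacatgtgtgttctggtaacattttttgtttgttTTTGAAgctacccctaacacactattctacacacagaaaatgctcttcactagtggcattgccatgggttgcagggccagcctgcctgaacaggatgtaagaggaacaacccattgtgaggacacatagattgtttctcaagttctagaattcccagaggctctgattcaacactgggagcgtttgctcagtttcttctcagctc
Izumo1 (chr7:45621561-45621860, plus strand): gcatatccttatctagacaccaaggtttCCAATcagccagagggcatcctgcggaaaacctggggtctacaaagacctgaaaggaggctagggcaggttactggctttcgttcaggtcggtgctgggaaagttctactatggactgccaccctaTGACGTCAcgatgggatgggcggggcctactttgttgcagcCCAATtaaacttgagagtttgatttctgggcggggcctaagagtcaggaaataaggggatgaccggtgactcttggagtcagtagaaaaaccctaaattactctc
Gm40011 (chr2:173082530-173082829, plus strand): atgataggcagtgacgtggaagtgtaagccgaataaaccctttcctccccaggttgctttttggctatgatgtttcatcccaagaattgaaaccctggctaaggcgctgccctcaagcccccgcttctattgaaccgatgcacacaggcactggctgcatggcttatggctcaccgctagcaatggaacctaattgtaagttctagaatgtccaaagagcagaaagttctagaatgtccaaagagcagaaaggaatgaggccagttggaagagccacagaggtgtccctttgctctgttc
In these windows the Cdk1 promoter had 3 CCAAT and 2 TTTGAA matches, Ccna1 had 1 CCAAT, Acrv1 had 1 TTTGAA, Izumo1 had 2 CCAAT and 1 TGACGTCA, and Gm40011 had none. CCAAT was found in 38.6% of the 153 windows of genes called higher, in 32.1% of the 162 windows of genes called lower and in 38.8% of the 12980 windows of all genes fitted. TTTGAA was found in 13.7%, 14.8% and 13.4% of the same sets, and TGACGTCA in 3.92%, 3.09% and 2.87%. A match is a run of letters and not a shown binding site.

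Spo11 was the clearest of the meiotic prophase genes. It had 57.2, 62.5 and 66.4 CPM in control_5NC, against 29.96 to 46.5 CPM in the 9 others, with a median of 36.9 CPM, and no overlap (log2 fold change 0.72 ± 0.079). The group means of the others were 33.0 ± 2.62 CPM in overexpression, 35.7 ± 3.68 CPM in knockdown and 44.9 ± 1.57 CPM in control_3NC (SD, n = 3 each). Among them the edgeR test gave an unadjusted p of 0.00213 and an adjusted p of 0.816. Against overexpression, knockdown and control_3NC in turn, Spo11 had log2 fold changes of 0.91, 0.80 and 0.47, and was not called against control_3NC alone. Spo11 was called without each of the 12 libraries in turn. Its list gave few calls: of 37 fitted meiotic prophase genes 1 was called higher and 1 lower, Syce2 of the synaptonemal complex. This is 5.41% called, against 2.41% of all genes, and the median log2 fold change was 0.08. Syce2 had 98.4, 122.8 and 103.8 CPM in control_5NC, against 110.2 to 183.0 CPM in the others, with overlap (log2 fold change -0.47 ± 0.11), and its call held in 2 of 12 fits that left out 1 library. The list's median was -0.17 with the covariate for the smallest libraries, and -0.04 without control_5NC library 2.

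Of 32 fitted genes of the pachytene and division list, 5 were called higher and none lower (15.6% called, against 2.41% of all genes, in the contrast that chose control_5NC). The median log2 fold change was 0.17, against -0.0031 for all genes, and 29 of the 32 were positive. Cdk1, the cyclin-dependent kinase of mitotic and meiotic entry, had 49.2, 48.4 and 48.6 CPM in control_5NC, against 30.7 to 38.3 CPM in the others, with a median of 35.2 CPM (log2 fold change 0.47 ± 0.063). Aurkb, the Aurora kinase of the chromosomal passenger complex, had 19.6, 17.1 and 18.99 CPM in control_5NC, against 9.72 to 14.2 CPM in the others, with a median of 12.8 CPM (log2 fold change 0.58 ± 0.098). Ccna1, the cyclin of male meiosis, had 154.3, 146.3 and 148.7 CPM in control_5NC, against 106.7 to 123.2 CPM in the others, with a median of 116.6 CPM (log2 fold change 0.37 ± 0.062). For each of these genes all 3 control_5NC libraries were above all others. Nek2, a centrosome kinase, and Pttg1, securin, had smaller log2 fold changes of 0.30 ± 0.063 and 0.29 ± 0.068. The call for Nek2 held in 4 of the 12 fits that left out 1 library. Aurka, Birc5 and Bub1b, also of division, were above all other libraries but not called, at log2 fold changes of 0.26, 0.25 and 0.17. Against overexpression, knockdown and control_3NC in turn, Cdk1 had log2 fold changes of 0.44, 0.57 and 0.39, and Aurkb 0.73, 0.53 and 0.48. Cdk1 lost its call without control_5NC library 3, Aurkb without control_5NC library 1 or 3, and Ccna1 without any 1 of the control_5NC libraries. Over the 12 fits that left out 1 library the log2 fold change of Cdk1 stayed between 0.45 and 0.48.

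Of 36 fitted round spermatid genes, 2 were called lower and none higher (5.56% called, against 2.41% overall), the median log2 fold change was -0.28, and 29 were negative. Acrv1, a protein of the acrosome, had 139.9, 134.8 and 136.8 CPM in control_5NC, against 144.1 to 226.6 CPM in the others, with a median of 193.1 CPM (log2 fold change -0.48 ± 0.11). Izumo1, the sperm protein that binds the egg, had 57.1, 56.8 and 63.2 CPM in control_5NC, against 66.0 to 98.3 CPM in the others, with a median of 82.8 CPM (log2 fold change -0.47 ± 0.11). The lowest of the 9 others in both genes was library 2 of control_3NC. In all, 9 of the 36 genes lay below every other library in control_5NC, against 3.00% of all genes, in the contrast that chose the group. Besides Acrv1 and Izumo1 these were Spaca1, Spaca3 and Spaca6 of the sperm acrosome, Catsper3 of the tail's calcium channel, the kinase gene Tssk3, Spata46 and Acsbg2, at log2 fold changes between -0.50 and -0.28. They were not called. The other 7 genes of the list were positive, among them Zpbp2 (0.37), Dpy19l2 (0.24) and Catsper2 (0.16), and none of these was called. Acrbp was near 0, at 0.00619. Each of the calls for Acrv1 and Izumo1 held in 3 of 12 fits that left out 1 library, and was lost without any control_5NC or knockdown library, without overexpression library 1 or 3, and without control_3NC library 1. The median of the list was -0.31 without control_3NC library 2, and -0.18 with the covariate for the smallest libraries.

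Of 38 fitted genes of elongating spermatids and the sperm tail, 2 were called lower (5.26% called, against 2.41% overall), the median log2 fold change was -0.17 and 31 were negative. Their mean of centred log2 levels per library overlapped, at -0.23 to -0.0229 in control_5NC and -0.246 to 0.209 in the others. Cabyr, a calcium-binding protein of the fibrous sheath, had 355.3, 311.9 and 315.4 CPM in control_5NC, against 323.1 to 535.7 CPM in the others, with overlap (log2 fold change -0.50 ± 0.11). Spata18 had 487.9, 420.9 and 454.9 CPM in control_5NC, against 505.5 to 673.9 CPM in the others, with no overlap (log2 fold change -0.37 ± 0.085). Both calls held in 3 of the 12 fits that left out 1 library. The protamine and transition protein genes of the last stages were split: Prm2 had -0.20, Prm1 0.15 and Tnp1 0.16, none of them called. Of 21 spermatogonial genes none was called, and the median was 0.09.

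**Figure D3:**
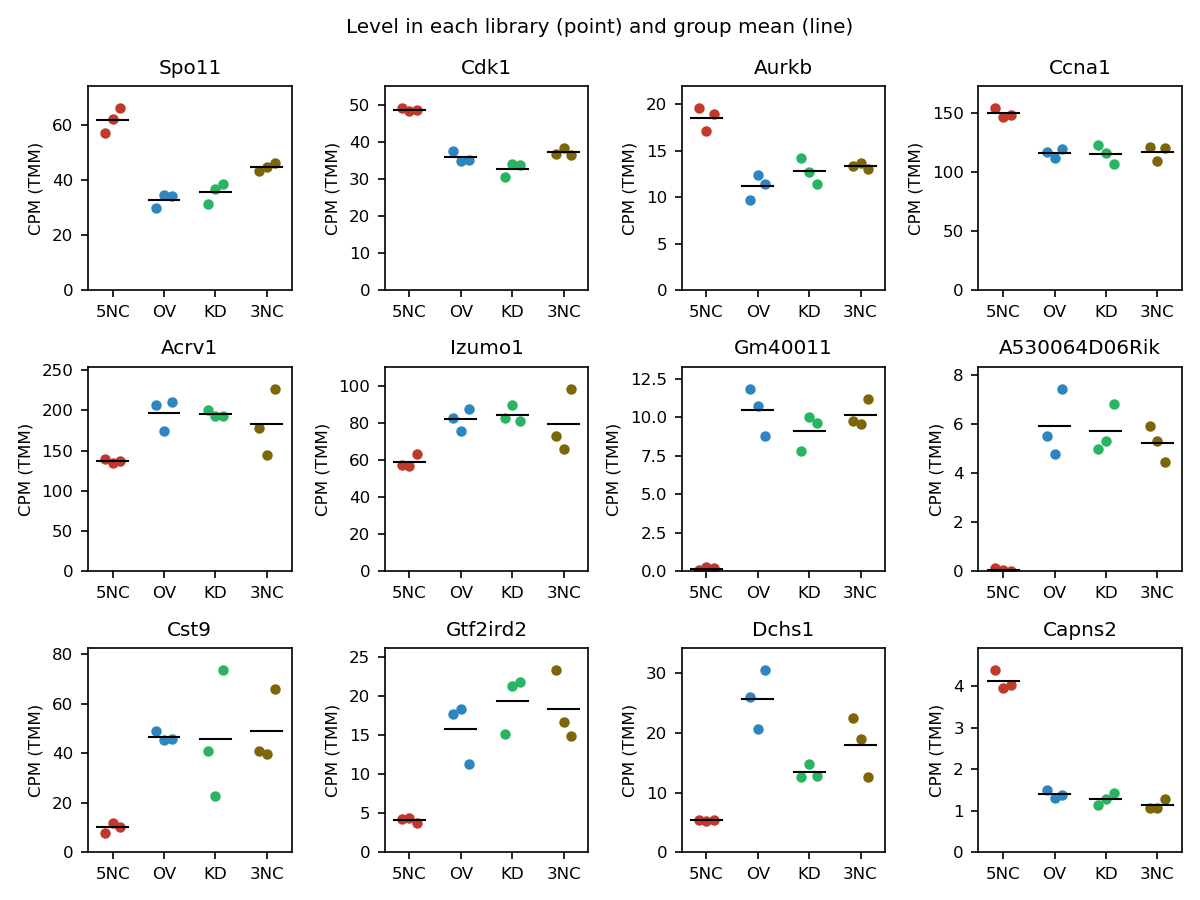
Level in CPM after TMM scaling (y axis, from 0) of 12 genes in each library (points) with the mean of each group (line), for control_5NC (5NC), overexpression (OV), knockdown (KD) and control_3NC (3NC). Gm40011 and A530064D06Rik lie near 0 in control_5NC, Spo11, Cdk1, Aurkb, Ccna1 and Capns2 lie above all other libraries, and Acrv1, Izumo1, Cst9, Gtf2ird2 and Dchs1 below.

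**Figure D4:**
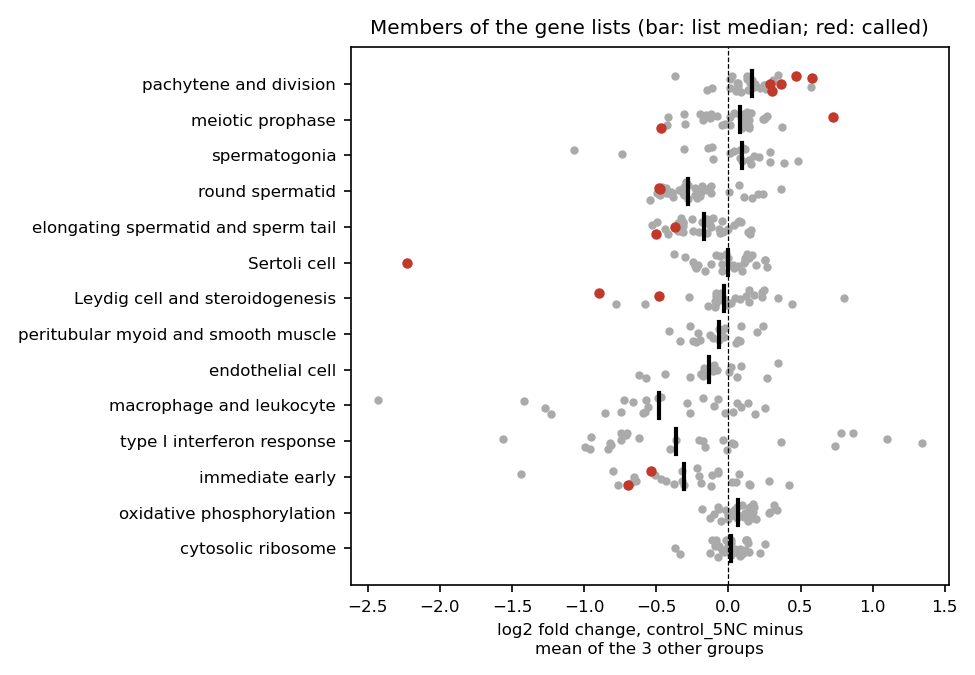
Log2 fold change of control_5NC over the mean of the 3 other groups (x axis) for the fitted members of 14 gene lists (y axis), with list medians as bars, called genes in red and the median of all genes as a dashed line. The pachytene and division list lies mostly to the right (median 0.17) and the round spermatid list mostly to the left (median -0.28). Lists not shown include those of adipose, histone and liver genes, with medians of -0.31, -0.37 and -0.33.

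Somatic lists and the others below gave few calls. Called were 3.23% of the Sertoli list, 6.9% each of the Leydig and the immediate early lists, 3.7% of the stress list and 5.88% of the epididymal list. Of all genes 2.41% were called, in the contrast that chose control_5NC. Of 31 Sertoli genes only Cst9 was called, and their median was -0.00386. Of 29 Leydig and steroid genes 2 were called lower, Cyp21a1 and Cyp51, and the median was -0.03. Cyp51, lanosterol demethylase of cholesterol synthesis, had 99.4, 92.3 and 109.5 CPM in control_5NC, against 108.8 to 160.2 CPM in the others, with overlap (log2 fold change -0.48 ± 0.11). Of 29 immediate early genes 2 were called lower, the transcription factor genes Egr3 (-0.70 ± 0.15) and Klf4 (-0.54 ± 0.12), with a list median of -0.31. Of 27 stress genes, Hspa5, the chaperone BiP, was called higher (0.31 ± 0.074). Of the 12 fits that left out 1 library, the calls for Egr3, Klf4 and Hspa5 held in 3 and that for Cyp51 in 4. The leukocyte list of 26 genes had a median of -0.48 and the interferon list of 27 genes -0.37, with no call in either. Without control_3NC library 2 these medians were 0.09 and 0.58, so their sign rested on that library. Of 17 epididymal and duct genes only Aqp9, a water channel, was called higher (0.42 ± 0.074), and the list's median of 0.42 turned to -0.41 with the covariate for the smallest libraries. The lists of myoid, endothelial, adipose, piRNA, oxidative phosphorylation, ribosome and histone genes had no call. The adipose list had a median of -0.31, with 16 of its 18 genes negative, and the histone list of 9 fitted genes had -0.37. Of 19 liver genes 2 were called lower, Alb and Serpina3k (10.5% called), and the median was -0.33. These medians were lower than the -0.28 of the round spermatid list.

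The beta-globin genes gave the widest split. Mouse beta-globin genes come in several haplotypes, of which the single type holds Hbb-bs and Hbb-bt and the diffuse type holds Hbb-b1 and Hbb-b2. Hbb-bs had 0, 0 and 0.0719 CPM in control_5NC, against 1.25 to 14.2 CPM in the 9 others, with a median of 6.02 CPM. In counts this was 1 in control_5NC and 932 in the others, a ratio of the others over control_5NC of 301 with a 95% counting interval of 53.9 to 11900. Hbb-bt had 0, 0.0706 and 0 CPM in control_5NC, against 0.147 to 4.32 CPM in the others. Hbb-b1 had 21.7, 35.2 and 25.8 CPM in control_5NC, against 7.71 to 19.8 CPM in the others, with a median of 10.4 CPM (log2 fold change 1.25 ± 0.20). Hbb-b2 had 3.96, 8.12 and 5.68 CPM in control_5NC, against 0.609 to 3.75 CPM in the others, with a median of 2.52 CPM (log2 fold change 1.32 ± 0.29). In all 4 genes the control_5NC libraries lay outside the range of the others, below for the first pair and above for the second.

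The counts of the 4 genes as a sum overlapped between the groups. Their summed level was 25.7, 43.3 and 31.6 CPM in control_5NC, against 15.4 to 28.1 CPM in the 9 others, with a median of 23.0 CPM. The share of this sum that fell to Hbb-bs and Hbb-bt was 0%, 0.163% and 0.228% in control_5NC, against 5.59% to 66.2% in the others, with a median of 43.3%. Hba-a1, alpha globin, was at 36.8, 35.6 and 29.2 CPM in control_5NC (log2 fold change 0.08), and Alas2 of red cell haem synthesis at 18.98, 20.7 and 18.8 CPM. Hbb-bs, Hbb-bt and Hbb-b1 have counts shared with near-identical copies and are uncertain. Without any 1 of the 3 control_5NC libraries Hbb-bs was not called, nor was Hbb-bt, which was also lost without overexpression library 1 or 3 and without knockdown library 2. Hbb-b1 was lost without control_5NC library 2 or 3. Hbb-b2 kept its call in 4 of the 12 fits, without overexpression library 2 or any 1 of the control_3NC libraries. Hbb-bs and Hbb-bt were also not called by limma-voom, and none of the 4 was called with the covariate for the smallest libraries.

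**Figure D5:**
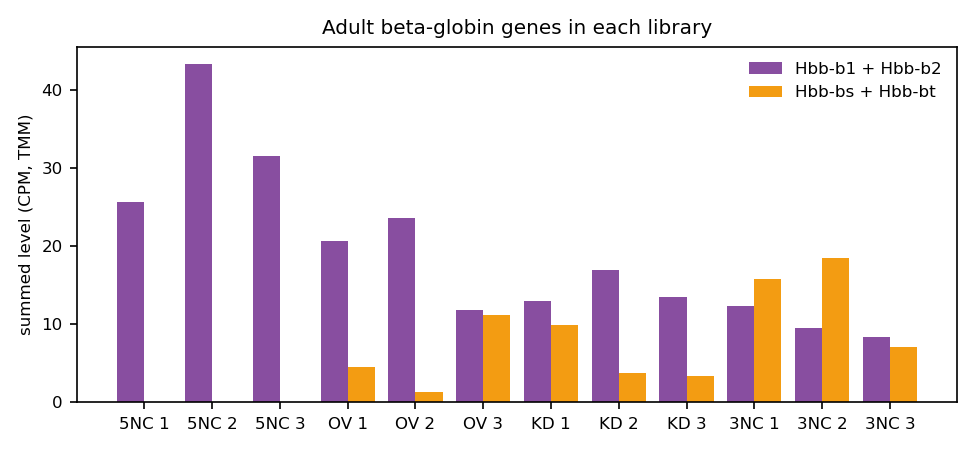
Summed level in CPM (y axis) of Hbb-b1 and Hbb-b2 (purple) and of Hbb-bs and Hbb-bt (orange) in each of the 12 libraries (x axis), for control_5NC (5NC), overexpression (OV), knockdown (KD) and control_3NC (3NC). The orange bars are at or near 0 in the 3 control_5NC libraries and reach 1.39 to 18.5 CPM in the others.

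Beside Hbb-bt and Hbb-bs, the called genes Ubqlnl, Trim6 and Trim5 lay on chromosome 7 between 103812524 and 104288094 (mm10), and all 5 were lower in control_5NC. The called genes themselves set the ends of this stretch, so their share in it is not a result. Trim6, an E3 ubiquitin ligase, had 3.08, 3.11 and 2.95 CPM in control_5NC, against 4.86 to 11.4 CPM in the others (log2 fold change -1.43 ± 0.21). Trim5 held 5 counts in control_5NC and 169 in the others, with counts shared between similar genes. Ubqlnl, a ubiquilin-like gene, had a log2 fold change of -0.31 ± 0.069. The call for Trim6 was lost without control_5NC library 3. That for Trim5 held in 5 of the 12 fits and that for Ubqlnl in 3. Dchs1, a protocadherin farther along at 105752990 to 105787654, had 5.41, 5.22 and 5.39 CPM in control_5NC, against 12.6 to 30.5 CPM in the others, with a median of 18.97 CPM (log2 fold change -1.78 ± 0.18). Against overexpression, knockdown and control_3NC in turn, Dchs1 had -2.27, -1.32 and -1.75. Its unadjusted p among these 3 groups was 0.00122 and its adjusted p 0.738 by edgeR. The call for Dchs1 held without each library. Of 35 fitted genes of the neighbourhood list, 5 were called lower and 1 higher, Rrm1 (17.1% called, against 2.41% of all genes), the median was -0.16, and 11 of the 35 were positive. The median was -0.06 without control_3NC library 2, and -0.04 with the covariate for the smallest libraries. This list was drawn up with the globin values known.

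The called genes were spread over the genome, with some near each other. Of the 389 called genes with a position, 177 (45.5%) lay within 1 Mb of another called gene, against 37.9% of the genes not called, a share close to the background. Of 157 such pairs 92 had the same direction. On chromosome 2, Spo11 (172977700 to 172993576) was higher and Gm40011 (173082780 to 173138200) lower. On chromosome X, the called genes Gm15114, Gm15127 and Luzp4 lay between 148488949 and 148924139, a stretch that they bound themselves, and were all higher. Each has counts shared with similar genes. On chromosome 14, the overlapping genes A630023A22Rik (-1.96 ± 0.26) and Antxrl (-0.76 ± 0.099) were lower. Where these genes overlap, their reads may not have been told apart, since the strand setting of the counting is unknown. Both lost their calls without control_5NC library 3. On chromosome 11 a group of 6 called genes that holds Aurkb had 3 higher and 3 lower among 99 fitted genes. The group of 5 on chromosome 3 that holds Ctsk, cathepsin K (1.31 ± 0.25), and Tuft1 (0.63 ± 0.074) had 4 higher and 1 lower.

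A core of 21 genes was called in all 12 fits that left out 1 library each. They were picked out after their values were seen. Higher in control_5NC were Spo11, Capns2, Marc2, Zmynd8, Bcas1, Zscan22, Tuft1, Shisa3, Zfp110, Jagn1, Tmem202 and Rfx8. Lower were Gm40011, A530064D06Rik, 9830107B12Rik, Gtf2ird2, Dchs1, Cacna1e, Cyp46a1, Gm3404 and Ell2. Marc2, a mitochondrial amidoxime reductase, had 53.9, 51.8 and 50.9 CPM in control_5NC, against 22.3 to 36.0 CPM in the others, with a median of 31.7 CPM (log2 fold change 0.79 ± 0.084). Bcas1 had 40.4, 35.3 and 42.4 CPM in control_5NC, against 20.0 to 26.8 CPM in the others (log2 fold change 0.77 ± 0.092). Cyp46a1, cholesterol 24-hydroxylase, had 6.41, 4.80 and 5.90 CPM in control_5NC, against 8.52 to 17.4 CPM in the others (log2 fold change -1.01 ± 0.13). Cacna1e, a voltage-gated calcium channel, had 3.46, 2.89 and 3.52 CPM in control_5NC, against 6.09 to 11.9 CPM in the others (log2 fold change -1.21 ± 0.15). Ell2, an elongation factor of RNA polymerase, had 97.7, 97.3 and 103.1 CPM in control_5NC, against 125.9 to 156.0 CPM in the others (log2 fold change -0.49 ± 0.067). In all 5 of these genes the control_5NC libraries did not overlap the others.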

How the data were processed

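RNA of 12 mouse testis libraries in 4 groups of 3 was analysed, with groups and replicate numbers from the labels. The members and gene lists were chosen with earlier results of these data known. Per the file headers, the values that the authors deposited are estimated counts for each gene, made from reads by steps that the headers do not record. Of the values, 88.2% are whole within 0.005. Per the submitters' processing notes, reads were placed on mm10. The aligner, counter, annotation and strand setting were not given in the sources used here. A further 18 per-sample columns belong to other samples and stayed out.

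Counts were rounded and fitted in R 4.3.3 with edgeR 4.0.16 as 1 robust quasi-likelihood model of 4 group means, after filterByExpr (minimum count 10) and TMM scaling. This kept 16395 of 20788 genes; the 4393 left out held 0.0708% of counts. The biological coefficient of variation was 19.7%. The contrast was control_5NC minus the mean of the 3 other group means, as a log2 fold change ± SE. P-values were adjusted by Benjamini-Hochberg over all genes fitted; among the 3 other groups an F-test was used. Library totals ran from 13485479 to 15771655, and counting intervals are exact 95% intervals that cover counting error only. DESeq2 1.42.0 and limma-voom (limma 3.58.1) were alternatives. The procedure was tested on simulated data. No pair of libraries of a group agreed within sampling noise (chi-square over degrees of freedom of 3.04 to 39.0).

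Named genes are the called genes with the 15 largest differences in each direction that reach 1 CPM and do not overlap, up to 4 called members of each list, called genes within 1 Mb of each other in the 5 largest groups, globins and library marks; the text gives part of them. Other genes named were picked after their values were seen. Positions are from GENCODE M21 or RefSeq on GRCm38, the assembly behind mm10, and were found for 389 of 395 called genes. Genes whose counts carry fractions are described as shared. lncRNA8276 itself was not analysed here.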

Additional observations from a re-analysis of the deposited data

How the results depend on the processing

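Counts of called genes moved with the settings. For control_5NC against the 3 other groups (395 genes), total-count scaling gave 662 genes, DESeq2 1162, a covariate for the 3 smallest libraries 81, and comparison with overexpression, knockdown or control_3NC alone 78, 202 and 40. Leaving out control_3NC library 2 and knockdown library 1 together, a choice made after seeing the data, gave 990. Leaving out 1 library at a time gave 23 to 1283 genes. The other settings (DESeq2-type size factors, no filter, minimum count 30, limma-voom, no robust dispersion, the 9 libraries as 1 group) gave 271 to 497. Among the 3 other groups (4 genes) DESeq2 gave 36, limma-voom 2, the 2 libraries left out together 0, and leaving out 1 library 0 to 6. For overexpression (8 genes) DESeq2 gave 29, the 2 libraries left out together 14, and leaving out 1 library 3 to 15. For knockdown (7 genes) DESeq2 gave 67 and leaving out 1 library 5 to 11. For control_3NC (2 genes) DESeq2 gave 70, limma-voom 1, the covariate for the smallest libraries 1, and leaving out 1 library 1 to 264, the last without library 3. The replicate block gave 854 genes for control_5NC, 1 among the other groups and 1 for control_3NC. Of 18 same-numbered pairs, 8 deviated together at a correlation over 0.1 (-0.125 to 0.313), and 8 of 12 libraries correlated best with their own number. These values do not settle whether the numbers mark pairs, and the main model did not treat them as pairs. The causes of these moves were not tested. Against control_3NC alone the log2 fold change of Alb turned to 0.44. For Hba-a1, not called in any setting, it ran from -0.0238 (without control_3NC library 3) to 0.248 with 1 library left out, and turned to -0.0065 against knockdown alone. Over 68 named genes, 815 of 816 values with 1 library left out had the direction first given, 459 of them past the threshold. Under other settings that kept the 4 groups or pooled the 9 libraries all 723 did, 616 of them past the threshold. The named genes other than Hba-a1 had been called in this contrast, and the refits share its libraries. The shared direction was thus largely set in advance and supports nothing. The median log2 fold change of all genes stayed between -0.0175 and 0.0266 under these settings. The 3 libraries a group limit how small a difference can be called.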

Other observations

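Families of genes with a shared name were picked after the values of the same contrast were seen, so their counts support nothing and are given as values. Over all genes fitted, 2.41% were called, 1.16% higher and 1.24% lower. Of 5 fitted Spata31 genes, 3 were called lower in control_5NC, and all 5 log2 fold changes were negative (60.0% called). Spata31 had 185.5, 193.4 and 196.2 CPM in control_5NC, against 222.1 to 319.2 CPM in the 9 others (log2 fold change -0.47 ± 0.097). Spata31d1d had 97.2, 82.9 and 88.5 CPM in control_5NC, against 101.6 to 162.0 CPM in the others (log2 fold change -0.61 ± 0.11). Of the 4 genes of the NDC80 complex, which ties chromosomes to the spindle, 2 were called higher: Ndc80 (0.46 ± 0.084) and Spc25 (0.49 ± 0.11). Of 6 condensin genes, of chromosome folding, Ncaph was called higher (0.47 ± 0.081). Of 21 centromere protein genes and 37 kinesin genes none was called, with medians of 0.09 and 0.05. Of 18 fitted cyclin-dependent kinase genes, 4 were called higher (22.2%), namely Cdk1, Cdk6, Cdk8 and Cdk14, at log2 fold changes of 0.41 to 0.48, and 15 of the 18 were positive.

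Of 436 zinc finger genes, 11 were called higher and 4 lower (3.44% called), with a median of 0.05. On chromosome 7 the neighbours Zfp110, Zfp128, Zscan22 and Chmp2a were all higher. Zfp110 had 188.2, 202.2 and 211.1 CPM in control_5NC, against 119.3 to 158.3 CPM in the others (log2 fold change 0.54 ± 0.066). Of 25 serine protease genes named Prss, 3 were called higher, and Prss45 had the largest difference of these, with 89.7, 58.4 and 77.7 CPM in control_5NC, against 31.5 to 51.7 CPM in the others (log2 fold change 0.87 ± 0.14). The collagen IV genes Col4a3 (0.63 ± 0.14) and Col4a4 (0.46 ± 0.096), which lie side by side on chromosome 1, were both higher. Of 412 genes with Riken cDNA names, 17 were called lower and 1 higher (4.37% called).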
